A study of Sus scrofa domesticus with 150 samples.

Results

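Elastic fiber genes were followed through porcine excisional wound healing at the level of mRNA. The 9 genes were taken by their symbols, ELN, FBN1, FBN2, FBLN1, FBLN5, LOXL1, MFAP4, MFAP5 and EMILIN1, out of 30461 genes in the deposited count table. Each symbol had 1 row, and each gene had counts in all 150 libraries and passed the filter on low counts in all fits. Counts per library ranged from 185 to 16014 for ELN and from 3 to 199 for FBN2, the lowest of the 9, whose counts are therefore the least precise.

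Elastic fibers give skin its recoil. A core of elastin, made from soluble tropoelastin (ELN), is laid onto a scaffold of microfibrils built from fibrillins (FBN1, FBN2), to which the microfibril-associated proteins MFAP4 and MFAP5 bind. Fibulin-5 (FBLN5) brings tropoelastin to the microfibril and to LOXL1, a lysyl oxidase that cross-links elastin, while fibulin-1 (FBLN1) and EMILIN1 sit within or at the border of the elastin core. Dermal elastic fibers are laid down mainly during growth and are replaced slowly after injury, and young scars are known to be poor in them.

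The tissue came from 6 female domestic pigs of a Yorkshire mix, numbered 1323 to 1328, with full-thickness circular wounds of 2 cm on the back. The wounds were dressed and not otherwise treated, and biopsy sites received an antibiotic ointment. Skin excised on day 0 gave 6 samples, 1 per animal, and 72 wounds gave 1 edge and 1 center biopsy each on 14 days, from 3 animals a day. Animals 1323, 1324 and 1325 were sampled on days 1, 3, 5, 7, 11, 15 and 21 and animals 1326, 1327 and 1328 on days 2, 4, 6, 9, 13, 16 and 19, so that neighboring days cannot be told apart from the animals. Days were therefore also grouped into days 1 to 3, 4 to 7, 9 to 13 and 15 to 21, each with both sets of animals. On 10 days each animal gave 2 wounds, and on days 15, 16, 19 and 21 it gave 1. No animal was left unwounded, and day 0 stands for intact skin. The day 0 samples were the excised skin as a whole and the wound samples small punch biopsies, so that in every comparison with day 0 the wound cannot be told apart from this difference in sampling.

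Library totals ranged from 13133379 to 24895572 counts. Levels are given as CPM, in which counts are divided by the total of their library, or as log2(1 + CPM), and levels of different genes are compared only in the deposited FPKM, which divide by gene length. Of the markers used to check the samples, 7 of 8 keratinocyte genes were found. Their summed level had a median of 49440 CPM on day 0 and between 32901 and 46663 at the edge in the 4 groups of days, but 179, 122, 208 and 12308 CPM in the center. Summed fibroblast markers (9 of 9 found) had a median of 39293 CPM on day 0 and medians of 15852 to 87897 CPM in the center and 16150 to 83694 at the edge. Summed hair follicle markers (4 of 5 found) had a median of 9616 CPM on day 0, 162 at the late edge and 0.784 in the center on days 4 to 7. Summed skeletal muscle markers (7 of 8 found) had medians of 11.1 CPM on day 0 and 4.46 in the center on days 1 to 3. Single libraries reached 66712 CPM of them in the center on days 1 to 3 and 39113 at the edge on days 9 to 13. No found marker of any list was at 0 in all libraries of a group. In such bulk tissue, fewer cells of a type and less RNA per cell cannot be told apart. Earlier work on these data, not the paper, had set 6 libraries apart from their replicates (1 each of day 2 center, day 3 center, day 3 edge, day 6 center, day 9 center and day 11 center). The paper itself singles out sample 2 of day 2 center, sample 4 of day 3 center and sample 5 of day 3 edge. The day 3 edge library set apart in the earlier work is replicate 6, and whether it is the paper's sample 5 cannot be told. Without the 6 libraries 7 of the 9 genes differed between edge and center on average and 51 of the 72 comparisons with day 0 passed the test, the same counts as with them. With all libraries, 32.5% of all genes were higher at the edge on average and 33.8% lower. Against day 0, between 16.6% and 36.9% of all genes passed in each direction, depending on the site and the days.

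In day 0 skin ELN was the most abundant of the 9, with 132 ± 48.4 FPKM (SD, n = 6), followed by MFAP4 with 99.3 ± 38.3, a difference smaller than either SD. FBLN1 had 38.8 ± 14 FPKM. MFAP5 with 24.3 ± 7.05, FBN1 with 22.6 ± 7.16 and LOXL1 with 19.3 ± 6.75 followed, and each of these differed from the next by less than its SD. EMILIN1 with 14.4 ± 3.43 and FBLN5 with 13.3 ± 5.26 were close to each other, and FBN2, the fibrillin known best from fetal tissue, had 0.277 ± 0.16. In the center on days 4 to 7 the order was a different one. EMILIN1 had 139 ± 60.4 FPKM (SD, n = 24 samples), LOXL1 103 ± 43.6, MFAP4 70.4 ± 34.9 and FBN1 66.8 ± 14.6, while ELN was in the seventh place with 18.2 ± 16.3. On days 15 to 21 MFAP4 was first at both sites, with 224 ± 63.1 FPKM in the center and 237 ± 66.2 at the edge (n = 12 samples each). ELN was then next at the edge with 141 ± 70.6, while in the center, with 40.7 ± 31.7, it came after LOXL1, EMILIN1 and FBN1 as well. Samples here include 2 wounds of an animal, which are not independent. These values give the order within a group of samples and were not compared between groups, since the FPKM carry a further factor per sample.

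**Figure D1:**
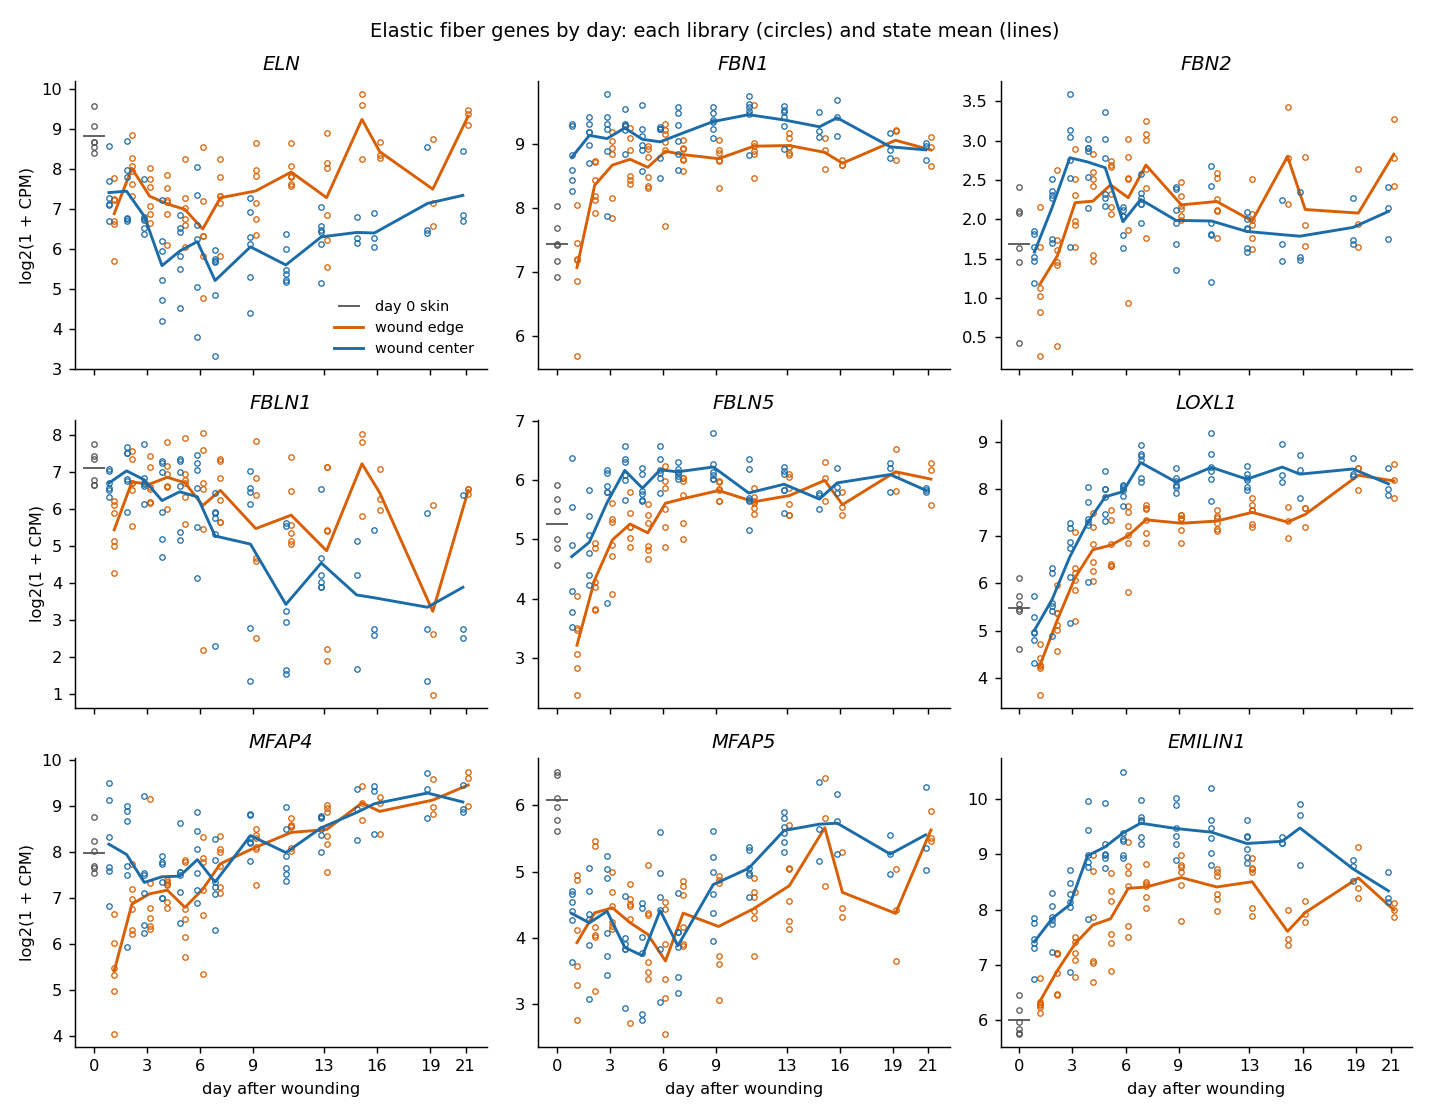
Each panel plots log2(1 + CPM) of 1 gene against the day after wounding, with a circle for each library and a line through the means of the 14 edge states (orange) and the 14 center states (blue), and a bar for the mean of the 6 day 0 samples. The center means of ELN are below the day 0 mean on all 14 days, the means of EMILIN1 are above it at both sites, and FBLN1 has SDs of up to 2.63 log2 units within a state.

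ELN encodes tropoelastin, the monomer of the fiber core. Its level on day 0 was between 337 and 755 CPM, with a median of 406. In the center it was between 81.5 and 412 CPM on days 1 to 3 (median 123, n = 18), between 8.89 and 264 on days 4 to 7 (median 54.2, n = 24), between 20.1 and 153 on days 9 to 13 (median 68.7, n = 18) and between 64.7 and 374 on days 15 to 21 (median 95.3, n = 12). All libraries of the center were thus below all of day 0 from day 3 to day 16, and 1 library each of days 1, 2, 19 and 21 reached into its range. At the edge the range was 50.9 to 456 CPM on days 1 to 3 (median 173), 26.1 to 375 on days 4 to 7 (median 142), 45.2 to 477 on days 9 to 13 (median 222) and 94 to 935 on days 15 to 21 (median 419), so that edge and day 0 overlapped. The lowest state mean in the center was on day 7, 5.20 ± 1.01 on the log2(1 + CPM) scale (SD, n = 6), against 8.82 ± 0.43 on day 0.

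Levels at the wound were compared with day 0 in 1 edgeR fit of all samples (quasi-likelihood test, Benjamini-Hochberg adjustment over 17916 genes, threshold 0.05), in which the 8 comparisons share the day 0 samples. In the center ELN fell to a 3.2-fold lower level on days 1 to 3 (log2 fold change -1.68, SE 0.36, adjusted p = 1.77e-05) and a 7.41-fold lower level on days 4 to 7 (-2.89, SE 0.32, adjusted p = 3.38e-14). It was still 6.48-fold lower on days 9 to 13 and 3.43-fold lower on days 15 to 21 (-1.78, SE 0.39, adjusted p = 5.14e-05), and all 6 animals were below their own day 0 sample in each of these groups of days. At the edge ELN was 2.82-fold lower on days 1 to 3, 3.31-fold lower on days 4 to 7 and 1.97-fold lower on days 9 to 13 (-0.98, SE 0.37, adjusted p = 0.0212). The last of these calls was lost without replicate 4 or replicate 5 of every state (adjusted p = 0.0717 and 0.0513). Replicates are numbered within each state by animal and then by wound. The same number thus stands for different animals in different states, and leaving it out does not leave out an animal. States of days 15, 16, 19 and 21 hold only replicates 1 to 3, so leaving out 4, 5 or 6 removes none of their samples. On days 15 to 21 the edge differed from day 0 by -0.00 (SE 0.41, adjusted p = 1), with 4 animals above and 2 below their own day 0 sample and differences from -1.94 to 1.07. From days 4 to 7 to days 15 to 21, ELN rose 3.31-fold at the edge (1.73, SE 0.28, adjusted p = 1.38e-07) and 2.16-fold in the center (1.11, SE 0.28, adjusted p = 0.000414). The rise in the center was 0.62 without replicate 3 of every state and no longer passed (adjusted p = 0.114). On days 19 and 21 replicate 3 was the only center library above 115 CPM of ELN, with 374 and 350 against 82.6, 87.3, 114 and 103 in the others.

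The microfibril genes took other courses. FBN1, the main fibrillin of adult tissue, had 120 to 261 CPM on day 0 (median 172). In the center it had 235 to 880 CPM on days 1 to 3 (median 586) and 429 to 824 on days 15 to 21 (median 557), and on 13 of 14 days every center library was above every day 0 library. FBN1 rose in all 8 comparisons, 2.7-fold in the center on days 1 to 3, 4-fold on days 9 to 13 (2.00, SE 0.19, adjusted p = 3.97e-17) and 3.49-fold on days 15 to 21. The edge was 1.43-fold higher on days 1 to 3 (0.51, SE 0.18, adjusted p = 0.0109), a call lost without replicate 2 or 6, and 2.94-fold higher on days 15 to 21. All 6 animals were above their own day 0 sample in every group of days at both sites. FBN2 stayed between 0.194 and 11.05 CPM in all libraries. It rose 1.67-fold in the center on days 4 to 7, 1.78-fold at the edge on days 4 to 7 and 2.07-fold at the edge on days 15 to 21 (1.05, SE 0.34, adjusted p = 0.00988). Each of these was lost without replicate 2 of every state, where the adjusted p was 0.194, 0.0683 and 0.0572, and the calls of days 4 to 7 were also lost without replicate 5 or 6.

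MFAP4, a glycoprotein that binds fibrillin and tropoelastin, had 184 to 430 CPM on day 0 (median 232). At the edge it had 15.5 to 567 CPM on days 1 to 3 (median 88.1) and 331 to 856 on days 15 to 21 (median 531), and the 2 groups of edge samples overlapped. It fell 2.79-fold at the edge on days 1 to 3 (-1.48, SE 0.30, adjusted p = 1.88e-05) and 1.66-fold on days 4 to 7 (-0.73, adjusted p = 0.0288, lost without replicate 1, 2, 3, 4 or 5). On days 15 to 21 it rose 2.38-fold at the edge (1.25, SE 0.36, adjusted p = 0.00387) and 2.3-fold in the center (adjusted p = 0.00288), in 6 of 6 animals at both sites, though both calls were lost without replicate 3 (adjusted p = 0.0539 and 0.0522). Between days 4 to 7 and days 15 to 21 MFAP4 rose 3.96-fold at the edge and 3.16-fold in the center. These 2 calls stayed when any 1 replicate number was left out. MFAP5, a small microfibril glycoprotein, had 48 to 90.4 CPM on day 0 (median 65.2) and 5.77 to 47.4 in the center on days 4 to 7 (median 14.4), without overlap. It fell in 7 of 8 comparisons, most on days 4 to 7 with 4.37-fold in the center (-2.13, SE 0.26, adjusted p = 1.14e-12) and 4.08-fold at the edge. By days 15 to 21 it was 1.79-fold lower at the edge (adjusted p = 0.0261, lost without replicate 1, 3, 4 or 5) and -0.37 (SE 0.31) in the center, which did not pass the test.

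LOXL1 and EMILIN1 rose the most. LOXL1 had 23.2 to 68.1 CPM on day 0 (median 44.8), 18.8 to 155 in the center on days 1 to 3 (median 46) and 225 to 496 on days 15 to 21 (median 318). Every center library of 10 days was above every day 0 library, as was every edge library of 9 days. On days 1 to 3 LOXL1 passed the test at neither site (0.16 in the center and -0.41 at the edge). It was then 5.23-fold higher in the center on days 4 to 7, 7.24-fold on days 9 to 13 and 7.89-fold on days 15 to 21 (2.98, SE 0.26, adjusted p = 6.94e-19), and 2.79-fold, 3.99-fold and 5.47-fold higher at the edge. EMILIN1 had 53 to 86.9 CPM on day 0 (median 59) and 106 to 419 in the center as early as days 1 to 3 (median 226). It was 3.25-fold higher in the center on days 1 to 3, 9.93-fold on days 4 to 7, 11.2-fold on days 9 to 13 (3.49, SE 0.29, adjusted p = 1.26e-20) and 8.69-fold on days 15 to 21. At the edge the changes were 1.74-fold, 4.55-fold, 6.42-fold and 4.63-fold. In all 14 days of the center and 13 of the edge no EMILIN1 library was as low as the highest of day 0. The summed fibroblast markers moved with several of these genes. Their list includes COL1A1 and COL1A2, and its 9 genes did not all move alike. At the edge on days 1 to 3, 3 were higher than on day 0 and 6 lower, against 24.9% and 23.9% of all genes. Over the 29 state means the r of their sum was 0.896 with LOXL1, 0.835 with FBLN5, 0.776 with MFAP4, 0.630 with EMILIN1 and 0.530 with FBN1. For the other members it was 0.537 with MFAP5, 0.247 with FBN2, -0.012 with ELN and -0.579 with FBLN1. After subtraction of each state's mean it was 0.596 with LOXL1, 0.626 with FBLN5, 0.317 with MFAP4, 0.583 with EMILIN1 and 0.674 with FBN1 over the 150 libraries. It was then 0.171 with ELN, 0.305 with MFAP5, 0.403 with FBN2 and 0.115 with FBLN1. Over the state means ELN had an r of 0.701 with keratinocyte, 0.694 with hair follicle and -0.689 with endothelium markers. It had 0.689 with the reticular and fascia fibroblast markers named below and -0.571 with macrophage and neutrophil markers. After subtraction of each state's mean these were, in the same order, 0.071, 0.110, 0.166, 0.701 and -0.350. The part of all these markers in the changes was not tested.

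The fibulins differed from each other. FBLN5 had 22.7 to 59.6 CPM on day 0 (median 37.4), 4.21 to 48 at the edge on days 1 to 3 (median 16.7) and 48.9 to 94.2 in the center on days 4 to 7 (median 68). It fell 2.37-fold at the edge on days 1 to 3 (-1.24, SE 0.21, adjusted p = 2.72e-07) and rose 1.66-fold, 1.71-fold and 1.64-fold in the center in the 3 later groups of days. The rise at the edge on days 9 to 13 (0.55, adjusted p = 0.0373) was not called with the animal as a replicate block (0.51, adjusted p = 0.0559), and was lost without replicate 1, 2, 3 or 6. It was also lost with library totals as the only scaling (0.42, adjusted p = 0.109), with median-of-ratios size factors (adjusted p = 0.0598) and without the filter on low counts (adjusted p = 0.0539). The rise on days 15 to 21 was 1.71-fold at the edge (adjusted p = 0.00758). It was lost without replicate 3 (adjusted p = 0.0716), and that of the late center was lost without replicate 2 (adjusted p = 0.0684). FBLN1 had 101 to 217 CPM on day 0 (median 136). It had 60.1 to 216 CPM in the center on days 1 to 3 (median 106), 3.94 to 176 on days 4 to 7 (median 72.7), 1.56 to 130 on days 9 to 13 (median 16.5) and 1.57 to 83.1 on days 15 to 21 (median 5.80). It fell 4.21-fold in the center on days 9 to 13 (-2.07, SE 0.54, adjusted p = 0.000394) and 6.23-fold on days 15 to 21 (-2.64, SE 0.60, adjusted p = 7.91e-05), in 6 of 6 animals. At the edge FBLN1 passed the test in none of the 4 comparisons with day 0, with log2 fold changes from -0.95 to -0.37 and SEs of 0.55 to 0.60. With the animal as a replicate block it passed on days 9 to 13 (-1.43, adjusted p = 0.0197).

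**Figure D2:**
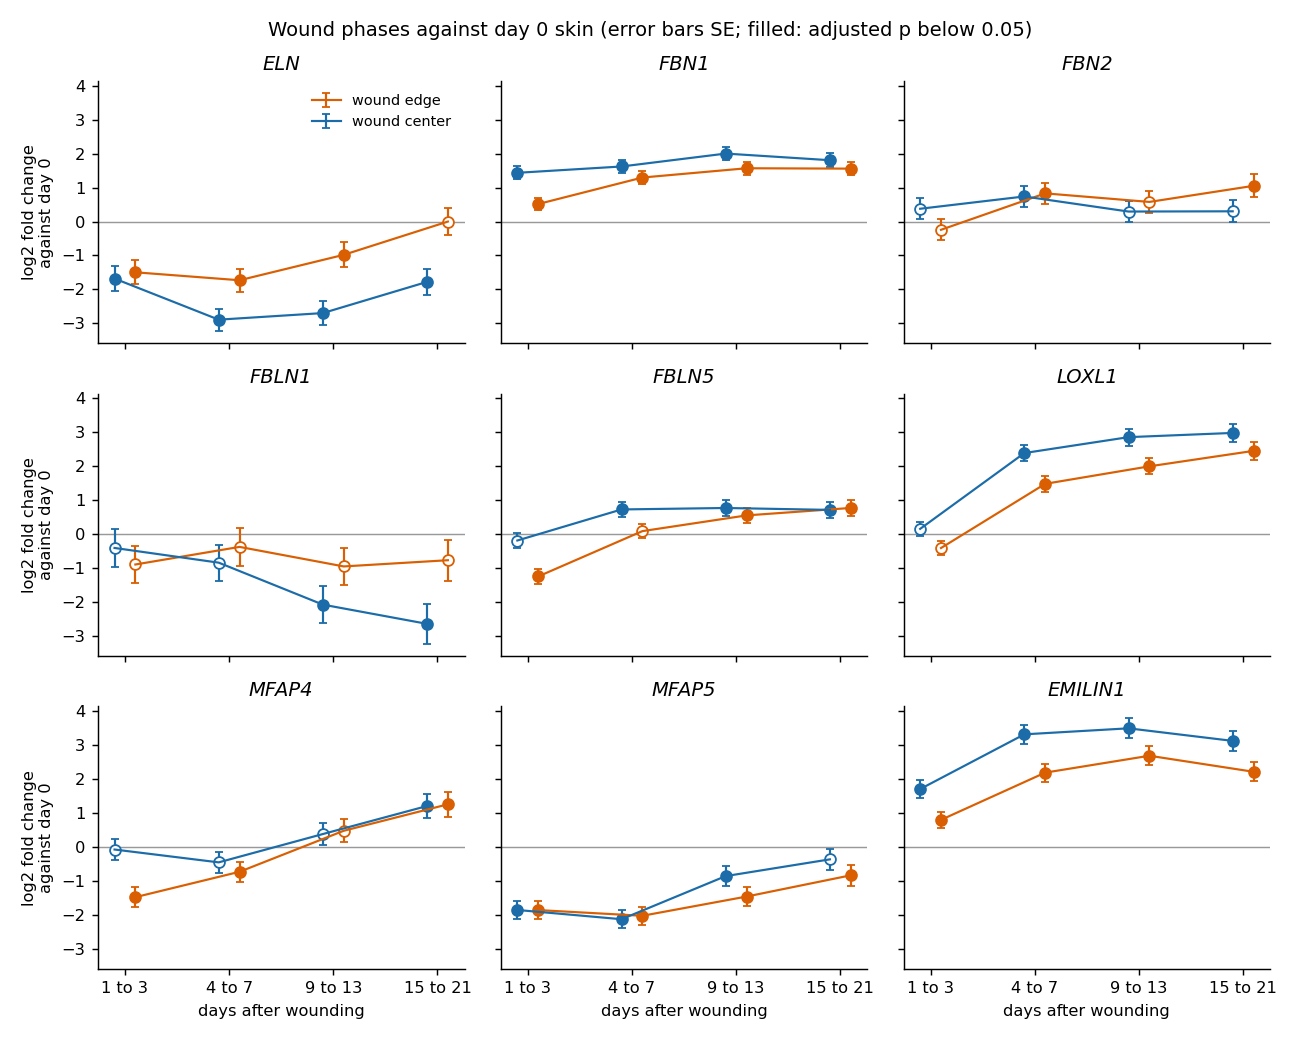
Each panel plots the log2 fold change of 1 gene against day 0 skin (edgeR, error bars SE) for 4 groups of days at the edge (orange) and in the center (blue), and filled points have an adjusted p below 0.05. ELN is lowest on days 4 to 7 at both sites and at -0.00 in the late edge, FBN1 and EMILIN1 are filled and above 0 throughout, LOXL1 from days 4 to 7 on, and FBLN1 is filled only in the center on days 9 to 13 and 15 to 21.

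The counts of the 9 genes stand beside those of all 17916 genes tested, of which a large part changed. In the center on days 1 to 3, 2 of 9 were higher than on day 0 and 2 lower, against 33.6% higher and 33.2% lower of all genes. On days 4 to 7 these were 5 and 2 of 9, against 34.3% and 36.9% of all genes. On days 9 to 13 the counts were 4 and 3 of 9, against 31.7% and 34.1%, and on days 15 to 21 they were 5 and 2 of 9, against 26.5% and 30.2%. At the edge 2 of 9 were higher and 4 lower on days 1 to 3, against 24.9% and 23.9% of all genes, and 4 and 3 of 9 on days 4 to 7, against 28.4% and 28.1%. On days 9 to 13 there were 4 and 2 of 9, against 25% and 21%, and on days 15 to 21 there were 6 and 1 of 9, against 18.1% and 16.6%. The median log2 fold change of the 9 genes in the late edge was 1.05, where the median of all genes was -0.03. Over the 14 days 9 of 9 changed in the center and 8 of 9 at the edge (F test of the same fit, all but FBLN1), against 75.2% and 58.7% of all genes. From days 4 to 7 to days 15 to 21, 4 of 9 rose and 1 fell in the center, against 26.2% and 26.3% of all genes, and 5 of 9 rose and 0 fell at the edge, against 18.2% and 22.7%. ELN, LOXL1, MFAP4 and MFAP5 rose at both sites between these days, FBLN5 rose 1.6-fold at the edge, and FBLN1 fell 3.48-fold in the center.

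Edge and center were compared as the average over the 14 days in the same fit. ELN, the fiber core, was 2.37-fold higher at the edge (1.25, SE 0.15, adjusted p = 2.24e-13), and FBLN1 was 1.75-fold higher (0.80, SE 0.22, adjusted p = 0.000713). EMILIN1 was 1.93-fold lower at the edge (-0.95, SE 0.09, adjusted p = 1.14e-18), LOXL1 1.64-fold lower (-0.71, SE 0.08, adjusted p = 1.19e-14), FBN1 1.37-fold, FBLN5 1.36-fold and MFAP4 1.27-fold lower (-0.34, SE 0.12, adjusted p = 0.00816). So 2 of 9 were higher and 5 lower, against 32.5% higher and 33.8% lower of all genes. FBN2 differed by 0.17 (SE 0.11, adjusted p = 0.187). MFAP5 differed by -0.23 (adjusted p = 0.0561) and passed with the wound as a replicate block (-0.28, SE 0.10, adjusted p = 0.00711), which pairs both samples of each wound and in which 69.6% of all genes passed. It also passed without replicate 1 or 4 (adjusted p = 0.0342 and 0.0471), with library totals as the only scaling (0.0392), with the wounds of an animal summed (0.0483) and in DESeq2 (0.0486).

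The edge sample of a wound had less EMILIN1 than its own center sample in 70 of 72 wounds and less LOXL1 in 63, and it had more ELN in 59. The median difference within a wound was 1.36 on the log2(1 + CPM) scale for ELN, with a range from -1.73 to 4.94, and -1.04 for EMILIN1, from -2.08 to 0.33. Averaged per animal, the difference was 1.15 ± 0.23 for ELN (SD, n = 6 animals), 0.65 ± 0.37 for FBLN1, -0.99 ± 0.14 for EMILIN1, -0.76 ± 0.17 for LOXL1 and -0.52 ± 0.09 for FBN1, with 6 of 6 animals on 1 side for each. FBLN5 and MFAP4 were lower at the edge in 6 of 6 animals, MFAP5 in 5 and FBN2 in 3.

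**Figure D3:**
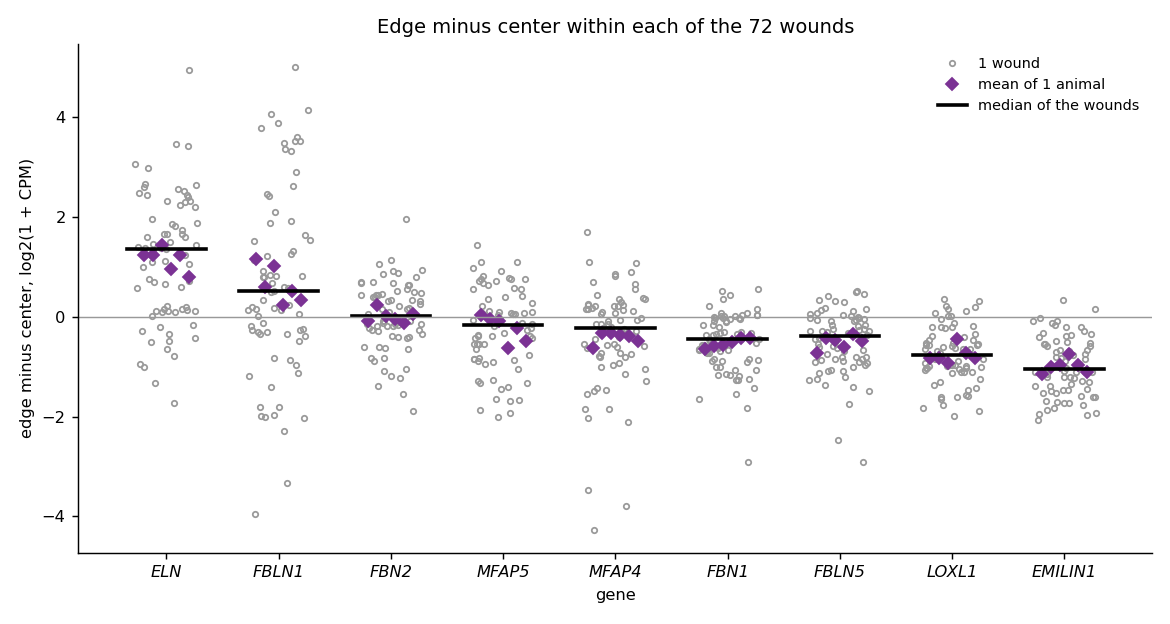
Points are the edge minus center difference of log2(1 + CPM) within each of the 72 wounds, diamonds the means of the 6 animals and black bars the medians of the wounds, for the 9 genes. All 6 animal means are above 0 for ELN and FBLN1 and below 0 for MFAP4, FBN1, FBLN5, LOXL1 and EMILIN1.

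Within single days the samples of each day were tested alone, with 14166 to 14652 genes. On day 1, 6 of the 9 genes passed, beside 46.6% of all genes. Day 2 had 3 (35.5% of all genes), day 3 had 0 (0%) and day 4 had 2 (27.8%). Day 5 had 3 (37.1%), day 6 had 1 (14.2%) and day 7 had 3 (37.4%). Day 9 had 3 (31.6%), day 11 had 4 (43.4%) and day 13 had 2 (28.4%). With 3 samples a site, day 15 had 3 (17.4%), day 16 had 2 (10.1%), day 19 had 0 (0%) and day 21 had 0 (0.0684%). On day 3 and day 19, where edgeR called 0 genes of all tested, 1 and 0 of the 9 were below an unadjusted p of 0.05, and DESeq2 called 0 of the 9 on both days. LOXL1 and EMILIN1 were lower at the edge on 8 days each, and EMILIN1 on 5 without replicate 3. ELN was higher on days 4, 7, 11, 15 and 16, by 2.86 on the log2 scale on day 15 (300, 935 and 780 CPM at the edge against 76.4, 110 and 69.8 in the center) and by 2.40 on day 11. On day 1 FBN1 (-1.57), FBLN1 (-1.11), FBLN5 (-1.85), LOXL1 (-0.76), MFAP4 (-2.84) and EMILIN1 (-1.06) were all lower at the edge, while ELN differed by -0.49 without passing. With the wound as a replicate block 43 of 126 tests of a gene on a day passed, against 32 without it, where the share over all genes and days was 26.2% with the block and 23.5% without it. FBLN1 then passed on 5 days instead of 1 (lower at the edge on day 1 and higher on days 4, 11, 15 and 16). EMILIN1 passed on 10 days, adding days 4 and 6, and ELN on 7, adding days 5 and 9. LOXL1 passed on 8, with day 4 gained and day 15 lost (adjusted p = 0.0817), and MFAP5 passed on day 16 and no longer on day 11 (adjusted p = 0.0686).

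The difference between edge and center was itself compared between days 15 to 21 and days 4 to 7. FBLN5 was the 1 gene of 9 that passed (0.69, SE 0.23, adjusted p = 0.0334), against 11.8% of all genes. Its edge minus center difference went from below 0 on days 4 to 7 (-0.88 on day 4) to 0.25, -0.36, 0.14 and 0.22 on days 15, 16, 19 and 21. This call was lost without replicate 1, 2 or 3 (adjusted p = 0.106, 0.0888 and 0.371). With the wound as a replicate block FBLN5 (0.73, adjusted p = 0.00623) and FBLN1 (1.94, adjusted p = 0.0166) passed, beside 15.7% of all genes. For ELN the change of the difference was 0.61 (SE 0.41, adjusted p = 0.402).

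The balance of elastin to the other matrix genes was tested within animals, as a difference of log2(1 + CPM) in the same library. ELN minus FBN1 was 1.37 ± 0.31 on day 0 (SD, n = 6 animals), -2.32 ± 0.63 in the center on days 15 to 21 and -0.27 ± 0.80 at the edge. The change from day 0 was -3.69 ± 0.80 in the center, from -4.95 to -2.61, and -1.64 ± 0.90 at the edge, from -3.20 to -0.75. Against the mean of the fibrillar collagens COL1A1, COL1A2 and COL3A1 the change was -3.04 ± 0.72 in the center and -1.15 ± 0.64 at the edge. All 4 were negative in 6 of 6 animals (exact permutation of the signs over animals, two-sided, p = 0.0312 for each, the smallest that 6 animals allow, and 0.0312 after adjustment over the 4 tests). So the late edge, where ELN itself did not differ detectably from day 0, had less ELN per FBN1 and per collagen than the same animal's day 0 skin. FBN1 itself was 2.94-fold higher there than on day 0. The 4 tests share ELN and the day 0 samples and are not independent of the comparisons above. Animals 1325 and 1328 had the highest late center values of ELN minus FBN1, -1.82 and -1.39, against -3.07 to -2.33 in the other 4.

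**Figure D4:**
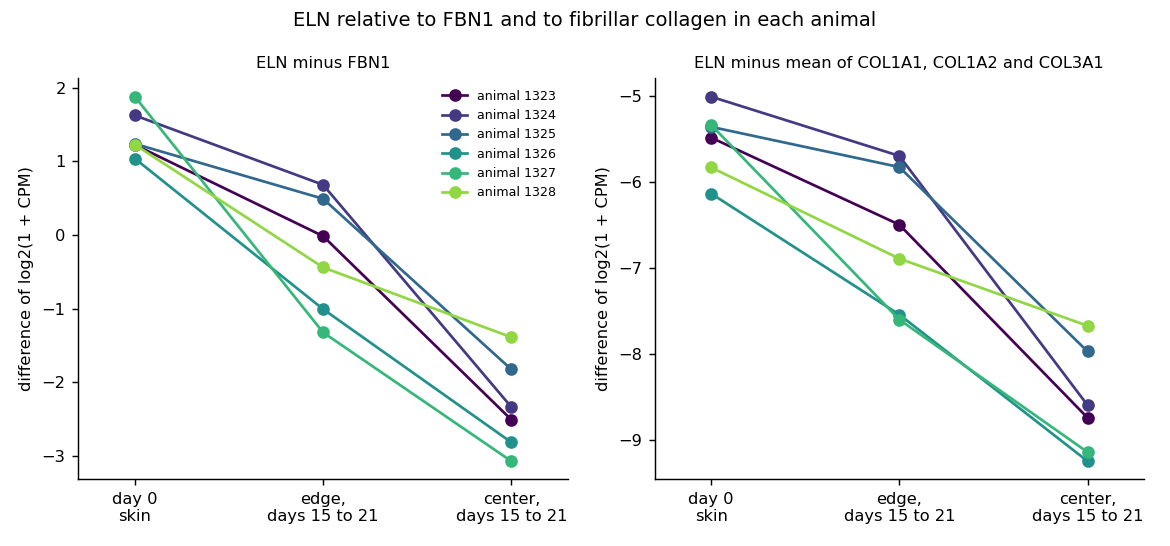
Each line joins the values of 1 animal for ELN minus FBN1 (left) and ELN minus the mean of COL1A1, COL1A2 and COL3A1 (right), as differences of log2(1 + CPM), in day 0 skin and at the edge and in the center on days 15 to 21. Both values are lower in the late wound than on day 0 in all 6 animals, and lower in the center than at the edge.

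Adipocyte markers differed strongly between libraries, and several of the 9 genes moved with them. The sum of ADIPOQ, PLIN1 and LEP (3 of 4 markers found, none at 0 in all libraries of a group) ranged from 68.8 to 1223 CPM on day 0, from 991 to 12765 in the center on days 1 to 3 and from 0.392 to 2242 in the center on days 15 to 21. On day 21 the 3 center libraries had 9.16, 1.16 and 2242 CPM of these markers and 4.75, 5.72 and 83.1 CPM of FBLN1. On day 19 they had 0.392, 3.00 and 1131 CPM of the markers and 1.57, 5.84 and 59.3 CPM of FBLN1. The libraries high in both came from animals 1325 and 1328. After subtraction of each state's mean, the r with the summed markers was 0.835 for FBLN1, 0.615 for ELN, 0.482 for MFAP4 and 0.404 for MFAP5 over the 150 libraries, which share animals and wounds, and lay between -0.16 and 0.27 for the other 5. FBLN1 and ELN had an r of 0.794 with each other. Summed markers of reticular and fascia fibroblasts (PI16, DPP4, CD34 and CLEC3B, 4 of 4 found) also went with MFAP5 (0.760), FBLN1 (0.742) and ELN (0.701). Their sum had medians of 991 CPM on day 0, 193 in the late center and 285 at the late edge. The 4 markers did not all move alike. In the late center 1 was higher than on day 0 and 2 lower, against 26.5% and 30.2% of all genes. The late edge had 0 higher and 2 lower, against 18.1% and 16.6%. Between edge and center on average 1 was higher at the edge and 2 lower, against 32.5% and 33.8%.

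With the summed adipocyte markers as a covariate, an alternative chosen after seeing the data, the fall of FBLN1 from days 4 to 7 to days 15 to 21 in the center went from -1.80 to -0.47 and no longer passed (adjusted p = 0.195). Against day 0 FBLN1 was then lower in the center in all 4 groups of days (-2.05, -1.78, -2.14 and -2.25), where without the covariate it was -0.41 and -0.84 in the first 2. At the edge it was then lower in all 4 as well (-1.17, -0.97, -1.67 and -1.04). Its change over the 14 days no longer passed in the center (adjusted p = 0.113) and passed at the edge (adjusted p = 0.0108). ELN stayed lower in the center (-2.42, -3.30, -2.55 and -1.31), and its average edge minus center difference was 1.22. Its rise in the center from days 4 to 7 to days 15 to 21 went from 2.16-fold to 3.96-fold (adjusted p = 9.54e-11). The same rise went from 3.16-fold to 4.75-fold for MFAP4 and from 3.39-fold to 4.58-fold for MFAP5. MFAP4 was then also lower than on day 0 in the center on days 4 to 7 (-0.67, adjusted p = 0.023), and the change of the FBLN5 difference between edge and center was not called (0.56, adjusted p = 0.147). FBLN1 and the markers already moved together in these same libraries, so this fit only describes how the values shift. The part of adipocyte RNA in these differences was not tested.

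**Figure D5:**
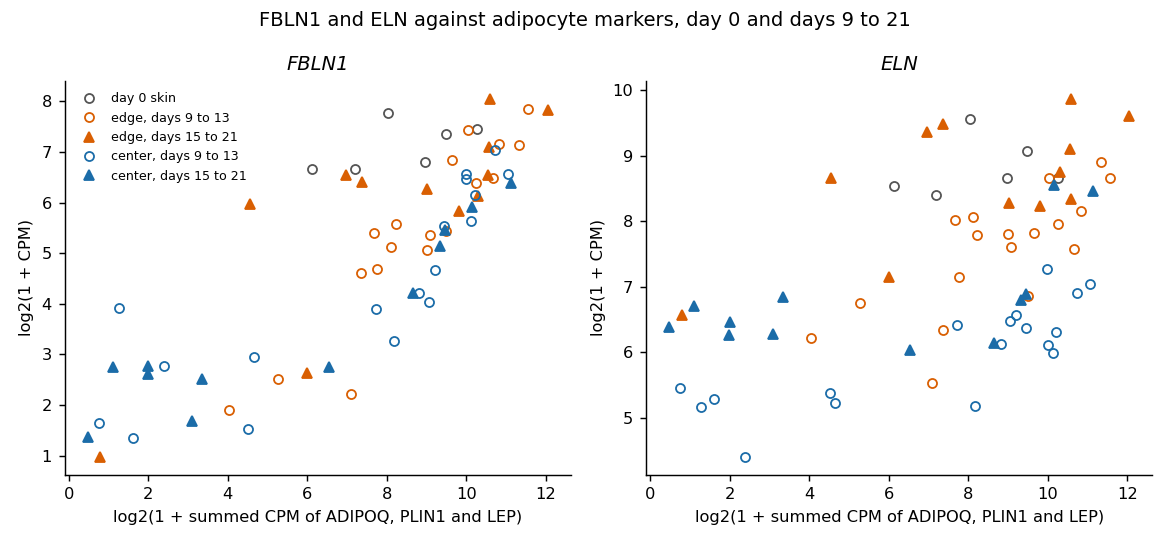
Points are libraries of day 0 (grey), days 9 to 13 (open) and days 15 to 21 (filled triangles) at the edge (orange) and in the center (blue), with log2(1 + summed CPM of ADIPOQ, PLIN1 and LEP) on the horizontal axis and log2(1 + CPM) of FBLN1 (left) or ELN (right) on the vertical axis. All libraries below 4 on the horizontal axis are also below 4 for FBLN1, and the 2 late center libraries highest for ELN are also the 2 with the highest marker levels among late center libraries.

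The other genes of elastic fiber assembly were taken from lists. Of 18 microfibril and fibulin partners 17 were tested, and LTBP2 was listed at 0 in every library. On average 6 were higher at the edge and 9 lower, against 32.5% and 33.8% of all genes (median -0.27, against -0.01 for all genes). Among the higher ones THSD4, a microfibril-associated protein that promotes fibrillin assembly, was 3.13-fold higher, ADAMTSL5 3.35-fold and EMILIN3 2.14-fold. The remaining fibrillin, FBN3, had a median of 12.1 CPM on day 0 and was at 0 counts in 17 of 24 center libraries on days 4 to 7, with a highest value of 0.676 CPM there. In the center on days 15 to 21, 8 of 17 were above day 0 and 6 below, against 26.5% and 30.2% of all genes, and at the edge 9 and 4, against 18.1% and 16.6%. THSD4 fell in the center on days 4 to 7 (-2.85) and differed by 0.05 from day 0 on days 15 to 21.

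The other lysyl oxidases, which cross-link collagen and elastin, and ATP7A, which supplies them with copper, were 5 of 5 tested. LOXL2, LOXL3 and LOX were lower at the edge on average, by 2-fold, 1.98-fold and 1.38-fold, as was 1 more of the list, and ATP7A was 1.48-fold higher. So 4 of 5 were lower and 1 higher, against 33.8% and 32.5% of all genes. LOXL2 rose with LOXL1 in the center (4.13 on days 15 to 21 against day 0), while LOX fell on days 1 to 3 (-1.41) and did not pass in the later groups of days (0.05, 0.23 and 0.16). The 3 genes of the elastin receptor complex, GLB1, CTSA and NEU1, were lower at the edge on average, as were 33.8% of all genes. In the center all 3 were higher than on day 0 in all 4 groups of days, against 33.6%, 34.3%, 31.7% and 26.5% of all genes.

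Of 11 elastases 8 were tested, and CTSG, CTSK and CTSV were not found under these symbols. In the center on days 4 to 7, 5 of 8 were above day 0 and 2 below, against 34.3% and 36.9% of all genes. MMP9 (8.16), CTSS (3.55) and MMP2 (2.07) rose there, and MMP7, made mainly by epithelial cells, had a median of 11.6 CPM on day 0 and 0.118 in these center libraries, of which 7 were at 0 counts. The elastase inhibitors (7 of 7 tested) split in the same tissue, with 3 above day 0 and 4 below, beside the same shares of all genes. TIMP1, an inhibitor of matrix metalloproteinases, rose (4.86), and SLPI, a neutrophil elastase inhibitor made by keratinocytes, fell from a median of 1069 CPM on day 0 to 5.75 in the center. SERPINA1, which blocks neutrophil elastase, went from a median of 216 CPM to 0 counts in 13 of 24 center libraries. SLPI was 21.8-fold higher at the edge than in the center on average, and the keratinocyte markers given above moved the same way. Their part in these values was not tested. Collagens (5 of 5 tested) were all lower at the edge on average, against 33.8% of all genes. All 5 were above day 0 at both sites on days 15 to 21, among them COL5A1 (3.08 in the center) and COL1A1 (1.23). Of all genes 26.5% were then higher in the center and 18.1% at the edge.

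The genes whose state means ran most like those of each member over the 29 states were found among 15832 named genes, as a description without a test, since states share animals. ELN ran most like APCDD1 (Pearson r 0.946), NDNF (0.916) and RERGL (0.913). FBN1 ran most like HSPG2 (0.968), FBLN2 (0.949) and PXDN (0.943). LOXL1 was most like ZNF469 (0.978), COL5A1 (0.977) and FMOD (0.975), and EMILIN1 most like ADAMTS7 (0.980), VOPP1 (0.977) and BMP1 (0.974). FBLN5 was most like WIPI1 (0.943), ADGRA2 (0.938) and COL6A3 (0.937), and FBLN1 most like BTC (0.935), NFIB (0.925) and PENK (0.908). MFAP4 was most like DDAH2 (0.943), HSPB6 (0.912) and FAT4 (0.908), MFAP5 most like PEBP4 (0.852), ATP1B2 (0.846) and RAI2 (0.842), and FBN2, with its low counts, most like YIPF2 (0.731) and ARMCX2 (0.714). No member was among the 3 most like another. Between members the highest r over states were those of FBLN5 and LOXL1 (0.885), FBN1 and EMILIN1 (0.861) and LOXL1 and EMILIN1 (0.859), and the lowest was that of ELN and EMILIN1 (-0.67).

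The count table places genes on contigs of an assembly that is not named in the sources used here, so introns, exons and neighbors of the 9 genes were not read. ELN (ENSSSCG00025076744) lies on the plus strand of contig LUXX01082543.1 from 2408703 to 2441304, and FBN1 (ENSSSCG00025076137) on contig LUXX01097801.1 from 2996 to 204548. FBN2 (ENSSSCG00025027287) is on contig LUXX01046340.1 from 641706 to 860046, FBLN1 (ENSSSCG00025060587) on LUXX01083335.1 from 713646 to 801016 and FBLN5 (ENSSSCG00025001654) on LUXX01011673.1 from 2302091 to 2400599. LOXL1 (ENSSSCG00025049733) is on LUXX01059144.1 from 903529 to 927264, MFAP4 (ENSSSCG00025031938) on LUXX01052640.1 from 1401878 to 1408504, MFAP5 (ENSSSCG00025014900) on LUXX01006132.1 from 1636929 to 1653589 and EMILIN1 (ENSSSCG00025065402) on LUXX01084869.1 from 3585555 to 3600093. ELN, FBN1, MFAP4 and EMILIN1 are named in the table only by the protein match in their description.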

How the data were processed

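RNA from 150 samples of 6 pigs, whole excised skin on day 0 and punch biopsies of wounds later, was sequenced as poly-A selected paired reads. The authors deposited raw read counts per gene and FPKM values (scaled by gene length, by counted reads and by a further factor per sample that is not described in the sources used here) from a provider's pipeline that removed adapter and low-quality reads before alignment. The aligner, counting tool and genome build were not given in the sources used here. Whether counting used strand was not stated either. Library totals were 13133379 to 24895572 counts, so 3 counts, taken as the floor, were 0.121 to 0.228 CPM. Intervals for counting error are not printed, since the spread between samples was measured. No 2 libraries were identical (0 pairs), and 0 sample columns were left unmapped.

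Counts were tested with edgeR 4.0.16 in R 4.3.3 (TMM, quasi-likelihood, genes with at least 10 counts in enough samples and 15 in total, Benjamini-Hochberg, 0.05). One fit held all 29 states, and each day was also fitted alone. Ratios were tested over 6 animals by exact sign flips (64 in all). Alternatives were DESeq2 1.42.0, other scalings, no filter, summed wounds of an animal, animal or wound blocks, replicates left out and 6 libraries left out. The wound block over all days took its trended dispersion from the design of states. Samples of 1 animal are not independent. The main fits had no term for animal or wound, so their p-values rest on the spread between samples and not on that between animals. They also did not use the pairing of samples by animal or wound.

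Edge and center samples were paired by the wound in their labels, and their deviations from the state means correlated with a mean r of 0.259, above 0 in 64 of 72 wounds. On simulated data with 200 changed genes, the day 7 comparison (6 against 6, 14303 genes) recovered 59% of 2-fold and 97% of 4-fold changes, and that of day 21 (3 against 3, 14621 genes) 10% and 88%. The simulated samples were independent, without animals or wounds, and all genes had the same dispersion. These rates therefore do not carry over to genes of larger spread.

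The 9 genes and all lists were chosen with earlier results of these data known. Beside the 9 genes, the rule named for each the 3 genes of highest Pearson r over the state means of log2(1 + CPM), and of each pathway list the 4 called genes with the largest average edge minus center change. For FBN2, 1 gene named by this rule is not reported here. The table names 12300 genes in its name column and 9387 by a protein in the description, and 8774 stayed unnamed. Plots and descriptions used Python 3.11.15, numpy 2.4.6, pandas 2.3.3, scipy 1.17.1 and matplotlib 3.10.9.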

Additional observations from a re-analysis of the deposited data

Results flagged for a closer look

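In 14 of 189 groups of 6 samples, 1 sample stood far from the other 5, by a gap that, as a share of the whole range of log2(1 + CPM), exceeded Dixon's critical value. Chance flags about 1 in 20 groups, which gives 9.45 here. Of these samples, 4 belong to the 6 libraries set apart in the earlier work. They are FBN1 in day 11 center replicate 1 (8.83 against 9.47 to 9.75, ratio 0.694), FBLN5 and EMILIN1 in day 3 center replicate 4 (3.93 against 5.79 to 6.17, ratio 0.831, and 6.87 against 8.05 to 8.71, ratio 0.640) and MFAP4 in day 3 edge replicate 6 (9.15 against 6.31 to 7.33, ratio 0.642).

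High samples were ELN in day 3 center replicate 6 (7.75 against 6.37 to 6.78, ratio 0.701), FBLN1 in day 13 center replicate 6 (6.56 against 3.89 to 4.68, ratio 0.705) and FBLN5 in day 9 center replicate 2 (6.79 against 6.01 to 6.27, ratio 0.662). EMILIN1 was high in day 1 edge replicate 6 (6.76 against 6.12 to 6.33, ratio 0.680), day 5 center replicate 4 (9.94 against 8.76 to 9.19, ratio 0.632) and day 6 center replicate 2 (10.5 against 8.94 to 9.38, ratio 0.714).

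Low samples were FBN1 in day 6 edge replicate 2 (7.73 against 8.91 to 9.31, ratio 0.747), FBLN1 in day 7 center replicate 6 (2.31 against 5.32 to 6.43, ratio 0.731), MFAP4 in day 9 edge replicate 4 (7.28 against 8.06 to 8.50, ratio 0.636) and MFAP5 in day 4 edge replicate 5 (2.71 against 4.28 to 4.81, ratio 0.746).

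The edge minus center difference of FBLN5 was greater on days 15 to 21 than on days 4 to 7, by 0.695 on the log2 scale (edgeR interaction, adjusted p = 0.0334). This call was lost without replicate 1, 2 or 3 (adjusted p = 0.106, 0.0888 and 0.371). It was also lost without the filter on low counts (0.0577) and with the adipocyte markers as a covariate (0.147).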

How the results depend on the processing

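Of the values recomputed under the alternatives, 0 changed direction while called. The number of the 9 genes called between edge and center on average was 7 and stayed at 7 or 8, and that of calls against day 0 was 51 of 72 and ranged from 44 to 58. In the main fit 32.5% of all genes were higher at the edge on average and 33.8% lower. Against day 0, between 16.6% and 36.9% of all genes passed in each direction. Calls within days were 32 of 126, where 23.5% of all genes and days passed, and the wound as a replicate block gave 43, where 26.2% passed. DESeq2 gave 51. The share of all genes and days that DESeq2 called is not given here, so the 51 cannot be read as particular to the 9 genes. The cause of the difference was not tested. For the change of the edge minus center difference 1 gene was called, against 0 without the filter on low counts, 0 with the adipocyte markers as a covariate (chosen after seeing the data) and 2 with the wound as a replicate block, and 0 to 1 when a replicate was left out. The animal as a replicate block gave 51 calls against day 0 as well, with that of FBLN5 at the edge on days 9 to 13 lost (0.51) and that of FBLN1 gained (-1.43). With 5 animals the exact test cannot go below 0.0625, so each ratio missed the threshold when an animal was left out, with ELN minus collagen from -3.28 to -2.88 in the center and from -1.29 to -0.93 at the edge, and ELN minus FBN1 from -3.91 to -3.44 and from -1.82 to -1.33. With 3 samples a site, the simulated day 21 comparison recovered 10% of 2-fold and 88% of 4-fold changes. That simulation had no animals or wounds and the same dispersion for all genes, so its rates do not carry over to genes of larger spread. In the measured day 21 comparison 0.0684% of all genes passed. FBN2, with as few as 3 counts, has the least precise counts of the 9.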
